A study of Mus musculus with 16 samples.

Results

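The 6 mouse Dlx genes lie in 3 pairs, Dlx1/Dlx2 on chromosome 2, Dlx3/Dlx4 on chromosome 11 and Dlx5/Dlx6 on chromosome 6, and the loops around the 3 pairs were compared in a Micro-C loop list of the cochlea. Members were chosen by name and annotation (GENCODE vM21, mm10), by a rule that uses no measured value, although the rule was set with earlier results of these data known. Of 6798 loops in the list, 24 had an anchor within 1 Mb of a pair, of which 3 had an anchor on a Dlx gene, 2 spanned a pair and 19 did neither. Micro-C digests crosslinked chromatin with micrococcal nuclease and joins neighbouring ends, so that read pairs record which stretches of DNA lay close together in the nucleus. A loop is a pair of 10 kb bins, its anchors, that the loop caller found in contact more often than their surroundings, and its false discovery rate (FDR) is the q-value that the caller gave it.

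The Micro-C group holds 4 samples, all whole cochlea of C57Bl/6 mice, labelled P0 (day of birth) although the series' design text gives P0 or P1. The series holds 12 further samples (CUT&RUN and ATAC-seq) that were not analysed here, and it has no second genotype, age or treatment among its Micro-C samples. The design text describes dissected and dissociated organs, and the study calls 3 replicates biological and replicate 4 technical in its results but all 4 biological in its supplement. Because loops were called once on the merged replicates, no value below has a spread between replicates, and no test was made. A loop called on merged replicates need not be present in each of them; the study tabulates per-replicate enrichment for the Dync1i1 loops, from another caller, which was not used here. In a whole organ, a loop in a few cell types and a weaker loop in all of them cannot be told apart.

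Dlx genes encode homeodomain transcription factors related to Distal-less of the fly. They pattern the jaw and pharyngeal arches, the limb and the forebrain, where they specify inhibitory interneurons, and Dlx5 and Dlx6 also act in the otic vesicle, from which the inner ear forms. The pairs arose by duplication of a single ancestral pair, so that Dlx1, Dlx4 and Dlx6 are related to each other, as are Dlx2, Dlx3 and Dlx5. The genes of a pair share enhancers, which lie between them or far outside, and loss of distant sequence at Dlx5/Dlx6 underlies human split hand/foot malformation with hearing loss.

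The 3 loops with an anchor on a Dlx gene reached the start site of Dlx2, Dlx3 and Dlx5, the 3 members of one of these groups, and none reached Dlx1, Dlx4 or Dlx6. The Dlx2 loop is a weak call (FDR 0.0753) that is lost below an FDR of 0.05. The Dlx3 start site lies only 118 bp inside its anchor bin. At Dlx2 and Dlx5 the far anchor lay in a dynein intermediate chain gene, Dync1i2 and Dync1i1 respectively, which are themselves paralogs. Both of these far anchors held the matching exon, 141 bp long in both genes, which is exon 14 of 16 in Dync1i2 and exon 15 of 17 in Dync1i1 and in both the exon 3 places from the 3′ end when the last is counted as 1. The exon at Dync1i1 is at chr6:6006270-6006410 and that at Dync1i2 at chr2:71258084-71258224 (GRCm38, plus strand). The Dync1i2 anchor also held exon 13, of 145 bp, whereas the Dync1i1 exon of that length, exon 14, lay outside the Dync1i1 anchor. The 2 exons of 141 bp are printed below because both far anchors held them, with capitals at the 29 positions where they differ.
Dync1i1 exon 15: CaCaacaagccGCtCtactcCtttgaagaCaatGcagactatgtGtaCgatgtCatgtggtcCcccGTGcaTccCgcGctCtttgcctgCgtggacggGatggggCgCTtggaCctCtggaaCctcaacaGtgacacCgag
Dync1i2 exon 14: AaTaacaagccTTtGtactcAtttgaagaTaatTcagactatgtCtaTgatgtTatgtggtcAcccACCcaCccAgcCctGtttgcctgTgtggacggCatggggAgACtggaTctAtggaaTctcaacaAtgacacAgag
The exons are identical at 112 of 141 bases (79.4%), with no gap. Identity of the same Dync1i1 exon to the other 15 exons of Dync1i2, by global alignment, ran from 18.6% to 55.3%. It was taken over the longer exon, so the lowest value, against the 656 bp exon 16, reflects unlike length. In paralogs the matching exon is the closest by descent, and other matching exons of the 2 genes were not compared. Whether this exon is more alike than those is therefore not known. The study cites exons 15 and 17 of the DYNC1I1 gene as enhancers of DLX5 and DLX6 in the limb and the otic vesicle. Whether the exons in these anchors make the contact cannot be read from bins of 10 kb.

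CTCF, the zinc finger protein that holds many loop anchors, was looked for by its 14-letter consensus, on both strands, with at most 1 mismatch. Of the 10 anchor bins of the 5 loops that touched or spanned a pair, 5 held a match. A match was present in 50.7% of the 2410 anchor bins on chromosomes 2, 6 and 11 and in 22.7% of all 44329 bins there. The matches are shown 5′ to 3′ on their own strand, with the consensus in capitals and 8 bases on either side, since they are the only ones at the loops of the pairs.
Dlx2 anchor, chr2:71548016-71548045, minus: tacactgtCCACCAGGTGGCGCcacaaagc
Dync1i1 anchor of the Dlx5 loop, chr6:6005814-6005843, plus: agggaggtCCACGAGGTGGCAGacgttgcc
Dync1i2 anchor of the spanning loop, chr2:71227602-71227631, plus: aaatttaaCCAGAAGATGGCAGtgatgagc
Itga6 anchor of the spanning loop, chr2:71838043-71838072, minus: tcactggaCCACCTGGGGGCGCtcgagaac
Dync1i1 anchor of the spanning loop, chr6:5858551-5858580, plus: gaaaacagCCAGTAGGCGGCGCtgctagct
Dync1i1 anchor of the spanning loop, chr6:5855082-5855111, minus: ctggcacaCCAGAAGAGGGCAGcaggtccc
The Dlx2 match had no mismatch and lay 1270 bp upstream of the Dlx2 start site. The match at the Dlx5 loop ended 434 bp before exon 15 of Dync1i1. Only the loop that spanned Dlx1/Dlx2 had a match at both ends, and these pointed towards each other. The anchors at Dlx3, at Dlx5, at the other end of the Dlx3 loop, at the Dync1i2 end of the Dlx2 loop and at the right end of the loop that spanned Dlx5/Dlx6 held no match, which says only that these letters are not in those bins.

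All 3 pairs are convergent, with the genes transcribed towards each other and the start sites on the outside. Dlx1 (ENSMUSG00000041911.3, chr2:71528113-71533981, plus strand) and Dlx2 (ENSMUSG00000023391.8, chr2:71543408-71546754, minus strand) are 9426 bp apart. Dlx6 (ENSMUSG00000029754.13, chr6:6863334-6868568, plus strand) and Dlx5 (ENSMUSG00000029755.10, chr6:6877805-6882085, minus strand) are 9236 bp apart, close to the same spacing. Dlx3 (ENSMUSG00000001510.8, chr11:95120119-95125296, plus strand) and Dlx4 (ENSMUSG00000020871.8, chr11:95140447-95146263, minus strand) are farther apart, at 15150 bp. The whole pairs measured 18642 bp, 18752 bp and 26145 bp in this order. They differed far more in their neighbourhood: within 1 Mb lay 17 other protein-coding genes at Dlx1/Dlx2, 7 at Dlx5/Dlx6 and 49 at Dlx3/Dlx4.

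**Figure D1:**
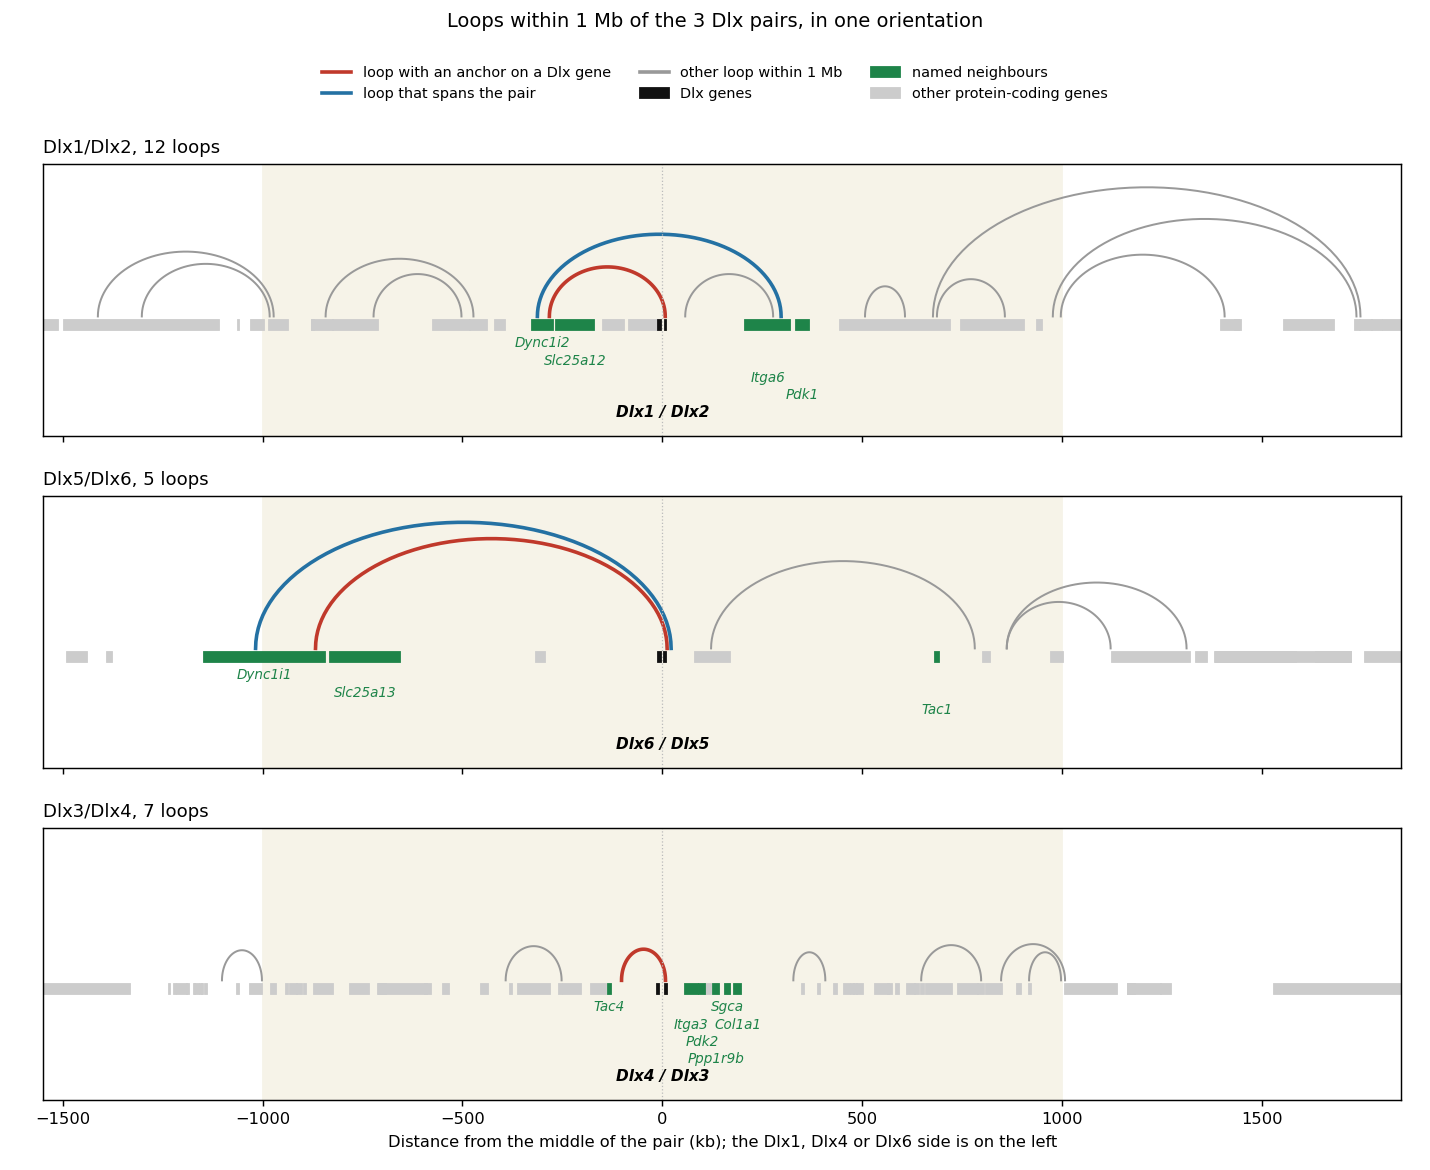
Loops (arcs) and protein-coding genes (boxes) around each pair, with distance from the middle of the pair in kb on the x axis, the Dlx1, Dlx4 or Dlx6 side on the left, the 1 Mb window shaded and arc height rising with loop distance. The red arcs, 290 kb at Dlx2, 880 kb at Dlx5 and 110 kb at Dlx3, all end at the right-hand gene and run to the left over its partner, and at Dlx1/Dlx2 and Dlx5/Dlx6 they end in a Dync1i gene.

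The Dlx2 loop joined the bin with the Dlx2 start site (chr2:71540001-71550000) to the bin in Dync1i2 (chr2:71250001-71260000), 290 kb away, with an FDR of 0.0753. This is one of the weaker calls of the list: among 1193 loops of like distance (within 20%), 90.4% had a lower FDR. Slc25a12, Hat1, Metap1d and Dlx1 lay inside it. The Dlx5 loop joined the bin with the Dlx5 start site (chr6:6880001-6890000) to the bin in Dync1i1 (chr6:6000001-6010000), 880 kb away, with an FDR of 0.00263. Of 614 loops of like distance, 23.1% had a lower FDR. Slc25a13, Sem1 and Dlx6 lay inside it. The Dlx3 loop joined the bin with the Dlx3 start site (chr11:95120001-95130000) to a bin with no protein-coding gene (chr11:95230001-95240000), 110 kb away, with an FDR of 0.000142, and of 999 loops of like distance 9.71% had a lower FDR. It was the shortest of the 3 and had the lowest FDR of the 3, and Dlx4 was the only protein-coding gene inside it.

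The start sites sat differently in their bins. That of Dlx2 was 3246 bp and that of Dlx5 2084 bp from the nearer edge of the bin, while that of Dlx3 was only 118 bp inside the edge. The start sites that were not in an anchor lay 11887 bp (Dlx1), 16262 bp (Dlx4) and 16666 bp (Dlx6) from the nearest anchor bin, against a median of 56645 bp over all protein-coding genes. In each pair the anchor thus lay within 2 bins of both start sites, and the assignment to Dlx2, Dlx3 and Dlx5 is one of bins, not of promoters.

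**Figure D2:**
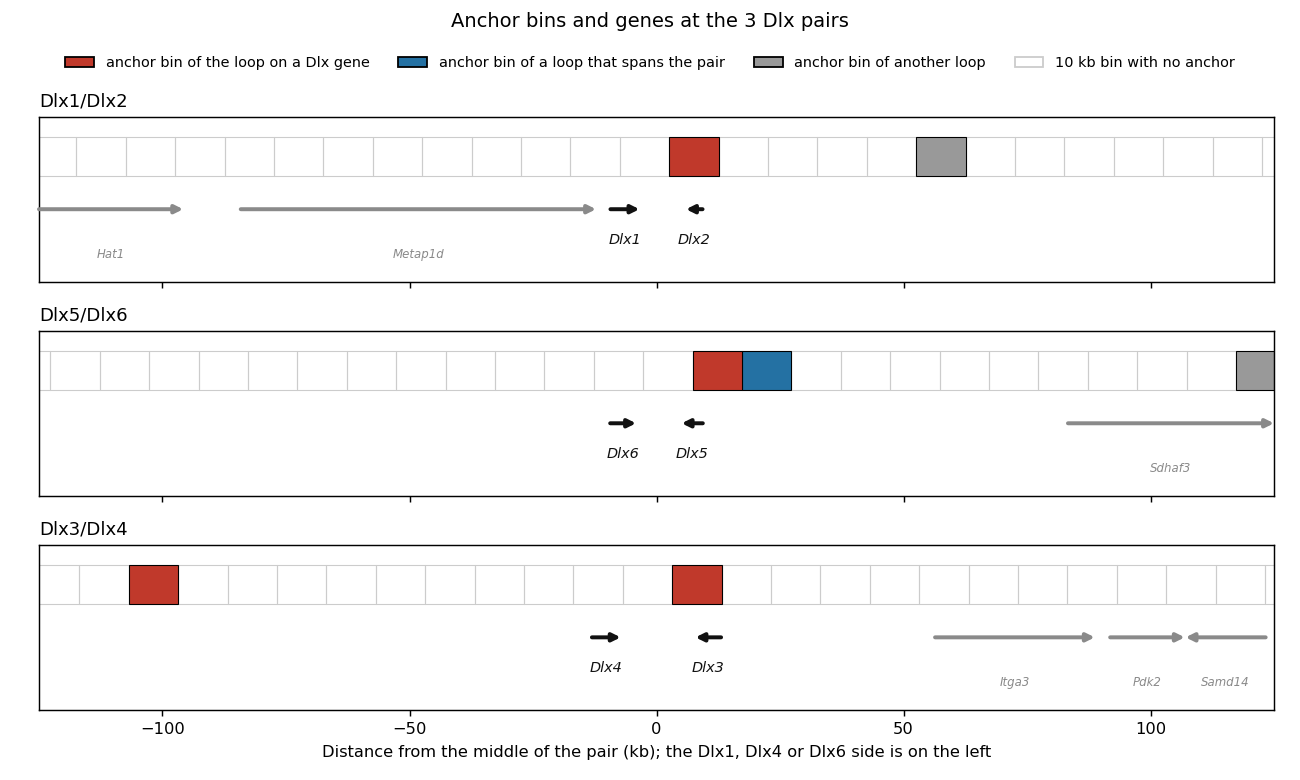
The 10 kb bins (boxes) and genes (arrows in the direction of transcription) close to each pair, with distance from the middle of the pair in kb on the x axis, and anchor bins filled by kind of loop. A red bin at each pair covers the start site of Dlx2, Dlx5 or Dlx3, and at Dlx5/Dlx6 the spanning loop ends in the next bin, in blue. The other red bin at Dlx3/Dlx4, on the left, is the far anchor of the Dlx3 loop.

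Over the 21755 protein-coding genes of chromosomes 1 to 19 and X, 24.1% had an anchor bin on the gene body and 7.1% had their start site in an anchor bin. Of the 6 Dlx genes, 3 had an anchor on the body and the same 3 had it at the start site. Genes that lay inside at least 1 loop made up 28.1% of all genes, while 5 of the 6 Dlx genes did. Dlx1 and Dlx6 lay inside 2 loops each, Dlx2, Dlx4 and Dlx5 inside 1 each and Dlx3 inside 0. Among 4136 convergent pairs of neighbouring protein-coding genes, 14% had exactly 1 of their 2 start sites in an anchor bin, as all 3 Dlx pairs did. In 25.3% of those 581 pairs a loop from that start site ran past the far end of the neighbour, as it did at all 3 Dlx pairs. The start sites of the Dlx pairs are 18641 bp, 18751 bp and 26144 bp apart, less than the length of these loops. Any such loop in the direction of transcription must therefore pass the partner, so the share for direction, given next, is the nearer comparison. In general, of 1738 pairings of a start site with a loop anchored on it, 52.7% ran in the direction of transcription (95% Wilson interval 50.4 to 55.0, counting error only). A loop counts once for each start site in its anchors, so the interval takes pairings as independent that are not. The 3 Dlx loci descend from one locus and are not independent draws from these genes.

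A further loop spanned Dlx1/Dlx2 and another spanned Dlx5/Dlx6. The loop over Dlx1/Dlx2 joined a second bin in Dync1i2 (chr2:71220001-71230000), which held exon 4, to exons 10 to 13 of Itga6 (chr2:71830001-71840000). It was 610 kb long with an FDR of 0.0625, so that the pair lay near its middle. The loop over Dlx5/Dlx6 joined a bin in the intron between exons 6 and 7 of Dync1i1 (chr6:5850001-5860000) to the bin just outside Dlx5 (chr6:6890001-6900000), 7915 bp from the gene. It was 1040 kb long with an FDR of 0.00178, and the pair lay at its right-hand end. Of 470 loops of like distance, 14.9% had a lower FDR than this one, against 84.8% of 888 for the loop over Dlx1/Dlx2. With only loops of an FDR below 0.05, the Dlx2 loop and the loop over Dlx1/Dlx2 are both lost, while those at Dlx3 and Dlx5/Dlx6 remain. No loop spanned the whole Dlx3/Dlx4 pair. The far anchors of the touching and the spanning loop were 30 kb apart in Dync1i2 and 150 kb apart in Dync1i1.

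**Figure D3:**
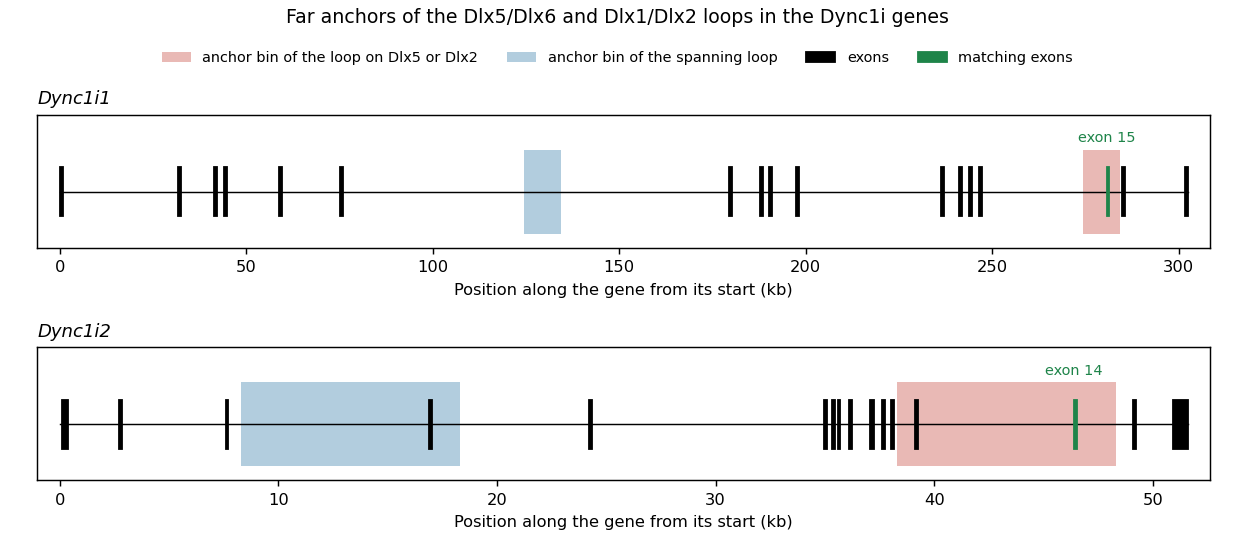
Exons (bars, drawn wider than to scale where narrow) of Dync1i1 and Dync1i2 along each gene in kb from its start, with the anchor bins of the loops on Dlx5 or Dlx2 in red and of the spanning loops in blue. The exons in green, 79.4% identical, lie in the red bin of both genes, while the blue bin holds no exon in Dync1i1 and exon 4 in Dync1i2.

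Dync1i1 and Dync1i2 encode the intermediate chains of cytoplasmic dynein, the motor that carries cargo along microtubules. In both genes the spanning loop lay nearer the start and the touching loop nearer the end: the anchor middles were at 25.8% and 83.9% of the length of Dync1i2 and at 42.8% and 92.4% of that of Dync1i1. The Dync1i2 loops are weak calls (FDR 0.0625 and 0.0753). The other ends of the spanning loops were unlike, in Itga6 and in the bin next to the Dlx5 anchor. Dync1i1 is the longer gene, so that a bin covers 3.31% of Dync1i1 and 19.4% of Dync1i2, where a bin at any place often holds an exon. No anchor of these loops lay at the start site of either gene. One further loop had an anchor on Dync1i1 (chr6:5790001-5800000 with chr6:5650001-5660000, FDR 0.000107), and it ran away from the Dlx genes. No further loop had an anchor on Dync1i2. The Dlx5 loop was 3.03 times as long as the Dlx2 loop, and the distance from the pair to the dynein gene was 3.15 times as long (835 kb and 265 kb). As both loops run from the pair to the near end of that gene, these ratios are nearly the same measure.

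Put in one direction with Dlx1, Dlx4 or Dlx6 first, the neighbours were partly the same. Dync1i2 and Slc25a12 lay on the Dlx1 side and Dync1i1 and Slc25a13 on the Dlx6 side, with the mitochondrial aspartate and glutamate carriers Slc25a12 and Slc25a13 between dynein gene and pair, inside both the touching and the spanning loop. Chromosome 11 had no Dync1i or Slc25a12/13 gene within 1 Mb, and its Dlx3 loop ended 110 kb away on the Dlx4 side. The laminin receptor subunits Itga6 and Itga3 lay on the Dlx2 and the Dlx3 side, at 199 kb and 43.3 kb, followed by Pdk1 and Pdk2, kinases of the pyruvate dehydrogenase complex, at 326 kb and 78.8 kb. Itga6 carried anchors of 2 loops and Itga3, Pdk1 and Pdk2 of none. The tachykinin precursor genes lay on unlike sides, Tac1 673 kb beyond Dlx5 and Tac4 115 kb beyond Dlx4, and neither had an anchor. Ppp1r9b, Col1a1 and Sgca lay 113 kb, 167 kb and 144 kb beyond Dlx3 and had no anchor, while their relatives Ppp1r9a, Col1a2 and Sgce on chromosome 6 and Pdk4 were more than 1 Mb from Dlx5/Dlx6. Of these distant relatives, Ppp1r9a carried anchors of 4 loops and Col1a2 of 1, each with 1 at the start site, and Sgce and Pdk4 of none. No Hox gene lay within 1 Mb of a pair, the nearest being Hoxb13 at 1048 kb from Dlx3/Dlx4.

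The 12 loops within 1 Mb of Dlx1/Dlx2 were more than 85.3% of protein-coding genes had, and the 5 at Dlx5/Dlx6 more than 29.9% had. This order depends on the window and on the loops kept: within 2 Mb the counts were 17 at Dlx1/Dlx2, 16 at Dlx5/Dlx6 and 16 at Dlx3/Dlx4. With only loops of an FDR below 0.05, the counts within 1 Mb were 8, 5 and 7. With all listed loops, the count within 1 Mb of Dlx3/Dlx4 was 7, which is also the median over all genes (quartiles 4 and 10). Of these loops, 1 was more than 1 Mb from Dlx3 itself. Median loop distance was 345 kb (range 100 to 1070 kb) at Dlx1/Dlx2, 660 kb (260 to 1040 kb) at Dlx5/Dlx6 and 110 kb (80 to 160 kb) at Dlx3/Dlx4, against 280 kb over the list. The ranges at Dlx3/Dlx4 and Dlx5/Dlx6 did not overlap. The median FDR was 0.0188, 0.00263 and 0.00655 in the same order, and 0.0113 over the list. Of the anchor bins inside the windows, 6 of 13 at Dlx3/Dlx4 held the start site of a protein-coding gene, against 2 of 19 at Dlx1/Dlx2 and 1 of 6 at Dlx5/Dlx6, with 49, 17 and 7 other genes in reach. Over the 11828 anchor bins of the list, 11.9% held one.

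**Figure D4:**
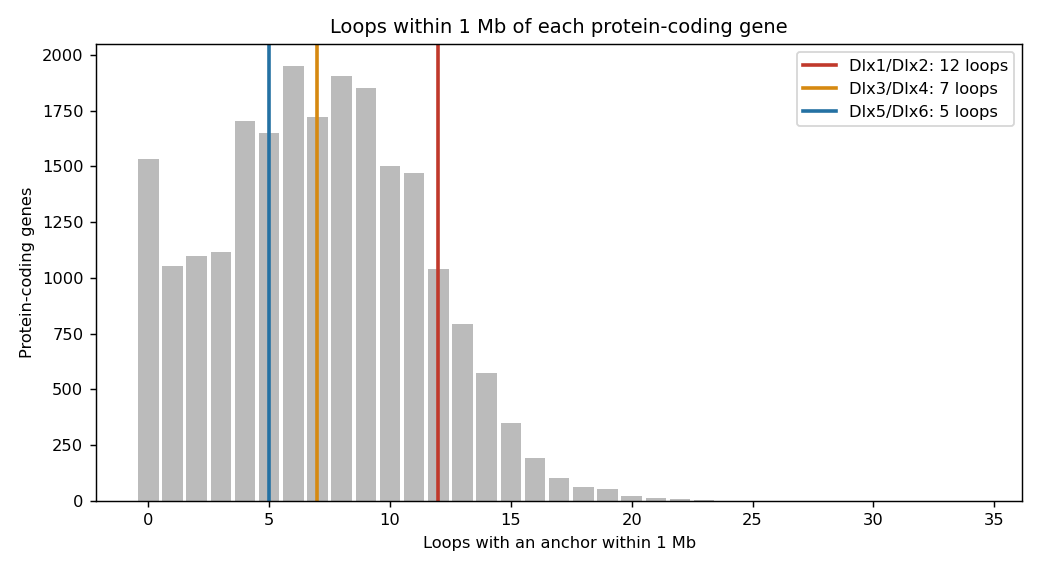
Number of protein-coding genes (y axis) by the number of loops with an anchor within 1 Mb (x axis), with the 3 pairs as vertical lines. Dlx1/Dlx2 (12 loops) lies above the upper quartile of 10, and Dlx3/Dlx4 (7) and Dlx5/Dlx6 (5) lie between the quartiles.

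The loops of lowest FDR in the windows of Dlx1/Dlx2 and Dlx5/Dlx6 were not those on a Dlx gene. At Dlx1/Dlx2 the lowest FDR, 3.48e-06, belonged to a loop of 220 kb from a bin with no protein-coding gene 43246 bp beyond Dlx2 (chr2:71590001-71600000) to Itga6 (chr2:71810001-71820000), lower than in all but 0.647% of the list. It had CTCF matches that pointed towards each other, and it ended 20 kb from the Itga6 anchor of the spanning loop. Next were a loop inside Rapgef4, a guanine nucleotide exchange factor gene (100 kb, FDR 0.000161), and a loop from Myo3b, a myosin gene of hair cell stereocilia, to the start site of Gad1, an enzyme of GABA synthesis (320 kb, FDR 0.000786). At Dlx5/Dlx6 the lowest was a loop of 660 kb on the Dlx5 side from Sdhaf3, an assembly factor of succinate dehydrogenase, to a bin with no protein-coding gene (FDR 0.000404), which enclosed Tac1. The spanning and the Dlx5 loop came next. At Dlx3/Dlx4 the Dlx3 loop itself was lowest, followed by loops to the start site of Tob1, a gene of the BTG family of growth inhibitors (80 kb, FDR 0.0018), and between Ankrd40 and the bin of Spata20 and Epn3 (150 kb, FDR 0.00383).

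**Figure D5:**
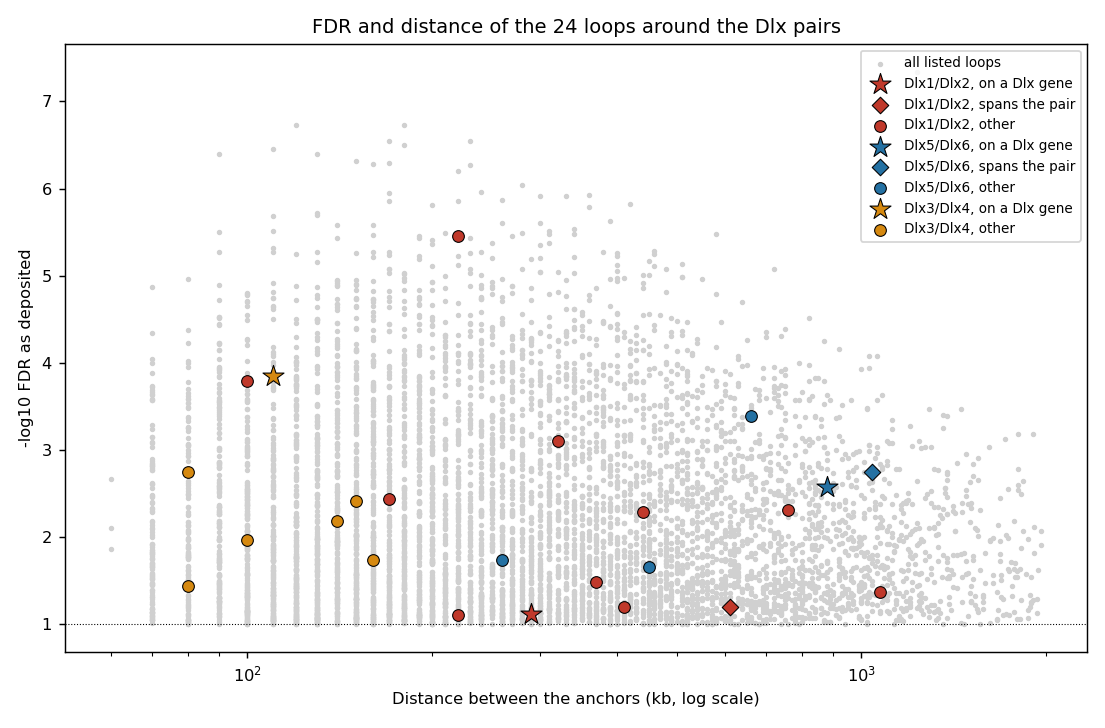
Distance between the anchors (x axis, kb, log scale) and -log10 of the deposited FDR (y axis) for all 6798 loops (grey) and the 24 loops around the pairs (coloured by pair). The Dlx3 star (110 kb) and the Dlx5 star (880 kb) lie well above the dotted line at an FDR of 0.1, while the Dlx2 star (290 kb) lies just above it.

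All 3 bins with a start site in an anchor held more G and C than most bins of their chromosomes, as did the other 3. The G and C content was 52.9% at Dlx2, 54.5% at Dlx3 and 45.5% at Dlx5, above 98.1%, 98.5% and 83.4% of the bins of their chromosomes, and 48.6%, 52.3% and 47.6% at Dlx1, Dlx4 and Dlx6. The median was 44.5% over anchor bins and 41.7% over all bins of the 3 chromosomes. The Dlx5 bin lay between the quartiles of anchor bins (41.4% and 47.6%). Of the Dlx genes, 2 had a start site region in the RefSeq table used (GRCm38.p6, 250 bases before to 50 after the start), Dlx1 and Dlx2. The RefSeq start of Dlx2 is the GENCODE one and lies in the anchor, whereas that of Dlx1 lies 1332 bp inside the GENCODE gene. The Dlx2 region is printed as the start site that the loop reached.
Dlx2 start region, chr2:71546705-71547004, minus: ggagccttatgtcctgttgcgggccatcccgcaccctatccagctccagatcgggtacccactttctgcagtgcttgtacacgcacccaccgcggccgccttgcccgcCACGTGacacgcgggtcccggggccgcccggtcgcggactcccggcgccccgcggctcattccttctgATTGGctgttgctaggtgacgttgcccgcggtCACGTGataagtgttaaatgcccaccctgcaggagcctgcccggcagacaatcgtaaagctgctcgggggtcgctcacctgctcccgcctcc
Capitals mark CACGTG, an E-box, found 2 times here and at least once in 7.15% of 32851 such regions, and CCAAT, found once on the other strand and present in 37.4% of regions. The homeodomain core TAATTA, present in 5.29% of regions, was not in this window. Both strands were searched, the matches do not overlap, and the motifs were picked after the sequence had been seen. The region holds 29 CG dinucleotides, more than 87.1% of regions. A match is a description and was not tied to any factor.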

How the data were processed

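Whole-cochlea Micro-C was made from 4 samples. The authors aligned reads to mm10 with BWA-MEM, removed duplicates with pairtools and ran the loop caller Mustache on the merged replicates at 10 kb; versions are not given in the sources used here. The q-value (FDR) of each loop was deposited by the authors and lies below 0.1 throughout. A score, the detection scale of Mustache, was also deposited by the authors. The list holds no counts, so the depth behind a loop is unknown and no interval was given for it.

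Loops were compared with GENCODE vM21 genes and GRCm38.p6 sequence in Python 3.11.15 (pandas 2.3.3, numpy 2.4.6, scipy 1.17.1, biopython 1.88, matplotlib 3.10.9). All anchor bins of chromosomes 2, 6 and 11 end within these chromosomes. Distance to a pair was taken from the gene bodies to the nearer edge of a bin, a loop touched a pair when an anchor overlapped a gene body, and spanned it when the pair lay between the inner edges. Gene 5′ ends served as start sites. Counting and motif code was tested on simulated data. The CTCF consensus came from general knowledge. Named were the Dlx genes, loops on or over a pair with their anchor genes, the 3 loops of lowest FDR per window and a list of gene families beside the pairs. Members and lists were chosen with earlier results of these data known. The exon comparison and the promoter motifs were added after the loops had been seen. CUT&RUN, ATAC-seq and 5 kb loops were not used here.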

Additional observations from a re-analysis of the deposited data

How the results depend on the processing

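Of 70 alternative values, 46 stayed within the limits set for a change (counts within 1.5 times) and 24 moved. At an FDR below 0.05, 0 loops touched and 0 spanned Dlx1/Dlx2, and likewise 0 and 0 below 0.01, so the likeness of its Dync1i2 loops to those at Dync1i1 rests on calls with an FDR above 0.05. The loops within 1 Mb at an FDR below 0.05 numbered 8 at Dlx1/Dlx2, 7 at Dlx3/Dlx4 and 5 at Dlx5/Dlx6. Below 0.01 they numbered 6, 4 and 3 in this order. With the smallest detection scale only, 7 loops lay within 1 Mb of Dlx1/Dlx2, of which 0 touched the pair. At that scale 7 lay within 1 Mb of Dlx3/Dlx4, and of the 3 within 1 Mb of Dlx5/Dlx6, 0 spanned that pair. A window of 500 kb left 6, 3 and 3 loops at Dlx1/Dlx2, Dlx3/Dlx4 and Dlx5/Dlx6, and one of 2 Mb gave 17, 16 and 16. With all listed loops, the higher count at Dlx1/Dlx2 thus holds for the 1 Mb and 500 kb windows and all but vanishes at 2 Mb. Within 1 Mb it narrows to 8 against 7 at Dlx3/Dlx4 at an FDR below 0.05, and is gone at the smallest detection scale (7 and 7). With both start sites between the outer edges as the rule for spanning, 2 loops spanned Dlx1/Dlx2, 2 spanned Dlx5/Dlx6 and 1 spanned Dlx3/Dlx4. Within 1 or 2 bins of a gene body, 2 loops touched Dlx5/Dlx6. A CTCF match was in 1 of 10 anchor bins with no mismatch and in 10 of 10 with 2, which 83.5% of all bins also held. Counting any transcript start, 12.0% of genes had a start in an anchor. This alternative, the any-start rule for touching and the FDR limit for direction and convergent pairs were chosen after seeing the data. No paired analysis was possible because the list holds no values per replicate, and no replicate could be left out for the same reason. Identity between Dlx proteins was not run, as no protein table was used here. Bins of 10 kb limit all positions.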

Other observations

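Among the loops at both edges of the Dlx1/Dlx2 window, 4 had an anchor on Gad1 or Sp9, and 2 of these anchors held the start site. The genes were picked after their loops had been seen, and the Sp9 anchors themselves lay outside the window. The start site of Gad1 (chr2:70550001-70560000) was joined to Myo3b (FDR 0.000786), and the next bin of Gad1 was joined to a second bin of Myo3b 440 kb away (FDR 0.00513). On the other side, the start site of the zinc finger factor Sp9 (chr2:73270001-73280000) was joined to a bin with no protein-coding gene 760 kb away (FDR 0.00492), and the next bin, with Sp9 and Cir1, to Rapgef4 1070 kb away (FDR 0.042). None of these 4 loops reached the pair.

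Over all 24 loops, 23 of 47 anchor bins (48.9%) held a CTCF consensus match, against 50.7% of anchor bins on the same chromosomes. The best match was on a single strand at both ends in 6 loops, of which 4 had matches that pointed towards each other and 2 had both pointing to lower coordinates. Over all 1388 loops of chromosomes 2, 6 and 11, a single strand was found at both ends in 323, of which 67.5% had matches that pointed towards each other, so the loops around the pairs are near this share.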
